A study of Mus musculus with 6 samples.

Results

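The genes described here are 35 genes of blood and lymphatic vessels, chosen by name from a table of 24054 gene rows, and each of them matched a row of the table by its exact symbol. They were read in salivary gland RNA of control mice and of mice in which the cytokine RANKL was switched on in the epithelium. K5-RANKL mice carried K5-rtTA and TetO-RANKL, in which an activator that needs doxycycline, placed under the keratin 5 promoter, turns on a RANKL transgene, so it is aimed at keratin 5 expressing epithelial cells and not at vessels. Controls were monogenic, and which of the transgenes they carried is not given in the sources used here; all mice of both groups were given doxycycline for 2 weeks from an age of 9 weeks. Each group had 3 libraries, each from the pooled glands of 5 mice, and p-values measure spread among such pools, which may be technical.

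Blood vessels are lined by endothelial cells, which are held together by junction proteins such as VE-cadherin and are wrapped by mural cells (pericytes and smooth muscle). Vascular endothelial growth factors (VEGFs) act through tyrosine kinase receptors on the endothelium, angiopoietins act through the receptor TIE2, and platelet-derived growth factor B from endothelium acts on its receptor on pericytes. Lymphatic vessels depend on the transcription factor PROX1 and on VEGF-C acting through VEGFR3, and inflamed venules display selectins that slow passing leukocytes. Salivary acini and ducts lie in a dense capillary bed that supplies the fluid they secrete.

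Values are CPM, read counts brought to a common library size after scaling by the trimmed mean of M values (TMM), a method that assumes that most genes keep their level. Total counts lay between 13875951 and 17921815, and 3 counts, the upper limit that a count of 0 allows, corresponded to between 0.125 and 0.295 CPM. The scaling bears on every direction below. TMM factors lay at 0.677 to 0.735 in controls and at 1.32 to 1.47 in K5-RANKL libraries. One salivary protein gene, Spt1, took up 28.5 to 35.1% of the reads counted in controls and 13.9 to 18.5% in the K5-RANKL group. Its part in these factors was not tested. With totals as the only scaling, the median over all tested genes was 1.01 on the log2 scale in place of 0.01, and each vessel gene moved up by about the same step. Tnfsf11, which encodes RANKL, stood at 3.78, 1.87 and 0.939 CPM in controls 1 to 3 and at 702, 405 and 723 CPM in K5-RANKL 1 to 3 (log2 fold change 8.15, SE 0.53, edgeR adjusted p = 0.000155).

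Vessel genes did not move as 1 block. Of the 35 genes, 34 passed the filter on low counts, and of these 18 were higher, 7 were lower and 9 did not pass the test (edgeR quasi-likelihood, K5-RANKL against control, adjusted p under 0.05). That is 73.5% called, where 66.2% of the 14044 genes tested in the whole table were called (34.2% higher and 32.1% lower). A called vessel gene is therefore not in itself a feature of this list. The median log2 fold change of the 34 genes was 0.28, and they ranged from −1.10 for Vegfb to 3.78 for Apln. By role, identity and junction genes lay between −0.53 and 0.44 with 5 of 10 not passing, Vegfa, Vegfb, Kdr and Flt1 were lower, and 4 of 5 lymphatic genes, 3 of 3 mural genes and 3 of 4 activation genes tested were higher. By library totals 30 genes were higher and 0 lower, where 83.5% of all genes were higher and 4.97% lower. In whole tissue, fewer cells of a type and less RNA per cell cannot be told apart.

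**Figure D1:**
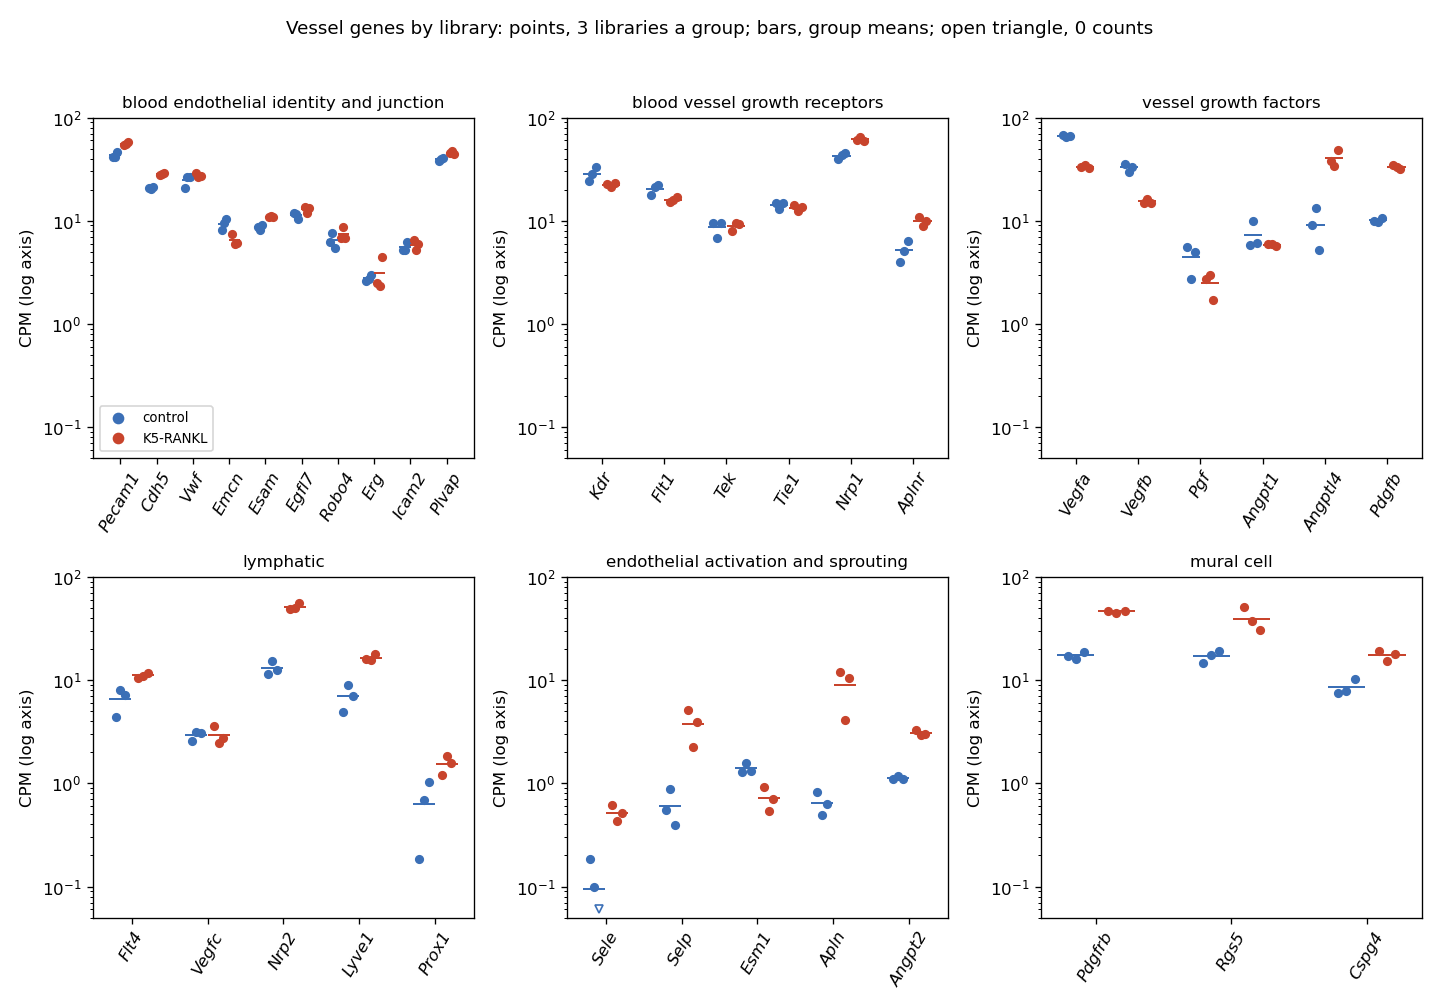
Log axis of CPM after TMM scaling for 35 vessel genes in 6 panels by role; points are libraries (3 control, 3 K5-RANKL), bars are group means and the open triangle marks a library with 0 counts. Vegfa sits at 64.3 to 67.8 CPM in controls and 32.7 to 34.5 CPM in K5-RANKL libraries, while Apln goes from at most 0.83 to at least 4.07 CPM.

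Endothelial identity genes were read in every library of both groups. Pecam1, encoding the adhesion protein CD31, stood at 41.8, 41.6 and 46.1 CPM in controls and at 54.6, 55.1 and 57.7 CPM in K5-RANKL libraries, with a log2 fold change of 0.37 (edgeR adjusted p = 0.000379, SE 0.08). Cdh5, encoding VE-cadherin, the junction protein specific to endothelium, stood at 20.7, 20.5 and 21.2 CPM and at 27.7, 28.1 and 28.7 CPM (log2 fold change 0.44, SE 0.08, edgeR adjusted p = 0.000164). For both genes every K5-RANKL library was above every control (1.29-fold and 1.35-fold).

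Of the 10 identity and junction genes 4 were higher, 1 was lower and 5 did not pass. Over all genes tested 34.2% were higher and 32.1% lower. The median log2 fold change of the 10 genes was 0.21, against 0.01 over all genes tested. The others that passed upward were small changes in Esam, a tight junction adhesion gene (0.34), and Plvap, which encodes the protein of the diaphragms in fenestrated capillaries (0.21). The call of Esam was lost without control 2 (edgeR adjusted p = 0.0554), and that of Plvap without control 1, K5-RANKL 1 or K5-RANKL 2 (edgeR adjusted p = 0.0604, 0.0514 and 0.0846); with DESeq2 both were lost, at adjusted p = 0.0666 and 0.0662. Emcn, encoding endomucin, a sialomucin of capillary and venous endothelium, went the other way, from 8.20, 9.42 and 10.5 CPM to 7.43, 5.99 and 6.06 CPM (log2 fold change −0.53, SE 0.14, edgeR adjusted p = 0.00354), with the opposite sign by library totals (0.47). Vwf (0.15), Egfl7 (0.21), Robo4 (0.20), Erg (0.16) and Icam2 (0.08) did not pass. Erg, the ETS family transcription factor of endothelium, was 4.43 CPM in K5-RANKL 3 and between 2.35 and 2.97 CPM in the other 5 libraries.

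Receptors of vessel growth split. Kdr, encoding VEGFR2, the main signalling receptor for VEGF-A, stood at 24.3, 28.6 and 32.9 CPM in controls and at 22.5, 21.1 and 23.4 CPM in K5-RANKL libraries, and was lower on the TMM scale (log2 fold change −0.36, SE 0.10, edgeR adjusted p = 0.00482) and higher by library totals (0.64). Flt1, encoding VEGFR1, a receptor that also acts as a decoy for VEGF-A, stood at 17.7, 21.0 and 22.2 CPM and at 15.2, 15.8 and 16.8 CPM, likewise lower on the TMM scale (−0.35, SE 0.10, edgeR adjusted p = 0.00557) and higher by library totals (0.64). For both genes the lowest control lay close above the highest K5-RANKL library, and without control 3 the value of Kdr was −0.25 and its call was lost (edgeR adjusted p = 0.0507).

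The angiopoietin receptor gene Tek (TIE2) and its relative Tie1 did not pass, at 0.04 (SE 0.14) and −0.08 (SE 0.10). Nrp1, encoding neuropilin-1, a co-receptor for VEGF-A and semaphorins, stood at 39.3, 43.3 and 45.8 CPM and at 60.7, 64.7 and 58.7 CPM, a rise of 0.52 (SE 0.08, edgeR adjusted p = 2.04e-05). Aplnr, the receptor gene for apelin, stood at 3.96, 5.11 and 6.42 CPM and at 10.9, 8.88 and 9.83 CPM, a rise of 0.92 (SE 0.16, edgeR adjusted p = 7.53e-05). Thus 2 of the 6 receptors were higher, 2 lower and 2 did not pass, the median being −0.02. Over all genes tested 34.2% were higher and 32.1% lower.

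Ratios of genes within a library do not depend on how that library is scaled, and so they set vessel genes side by side. The log2 ratio of Kdr to Cdh5 counts was 0.23, 0.48 and 0.63 in controls and −0.30, −0.41 and −0.30 in K5-RANKL libraries, a difference of −0.78 with no overlap. The ratio of Flt1 to Kdr, in contrast, was −0.49 ± 0.07 and −0.48 ± 0.07 (SD, n = 3 each), a difference of 0.00 (exact permutation test, two-sided, p = 0.9). The ratio of Pecam1 to Cdh5 differed by only −0.07, and that of Plvap to Cdh5 by −0.23. For Aplnr to Cdh5 the difference was 0.51. Of 18 pairs compared, 11 did not overlap between groups, and since 70.4% of single genes did not overlap either, nothing is read from that count. With 3 libraries against 3 the exact permutation test cannot go below p = 0.1, which those 11 pairs reached (0.164 adjusted over the pairs), so none of the ratios could pass a threshold of 0.05.

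**Figure D2:**
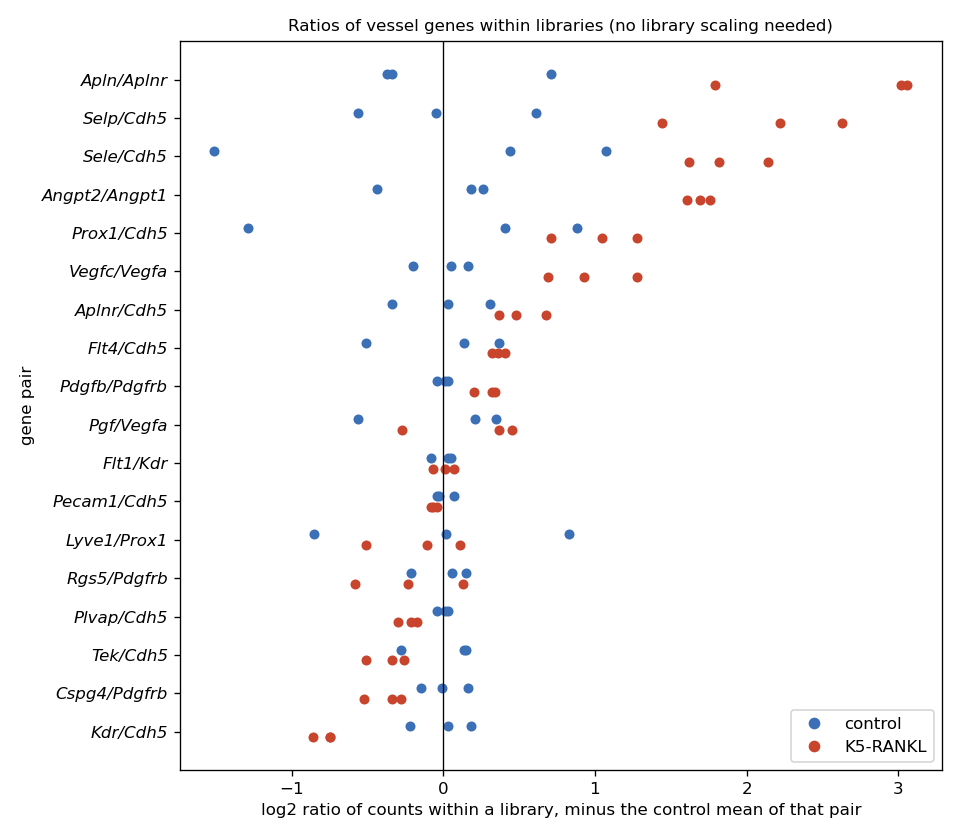
Log2 ratio of the counts of 2 genes within each library, minus the control mean of that pair (x axis), for 18 pairs (y axis); blue points are control and red points K5-RANKL libraries. The K5-RANKL mean lies lowest for Kdr against Cdh5 (−0.78), at 0.00 for Flt1 against Kdr and highest for Apln against Aplnr (2.62).

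The starts of Flt1 and Kdr are shown because these receptor genes kept their ratio to each other. They are the 250 bases before the RefSeq start in GRCm38.p6, on the minus strand, at chr5:147726012-147726261 for Flt1 and chr5:75978456-75978705 for Kdr, written 5′ to 3′, with capitals on the ETS-type letters AGGAAG.
Flt1: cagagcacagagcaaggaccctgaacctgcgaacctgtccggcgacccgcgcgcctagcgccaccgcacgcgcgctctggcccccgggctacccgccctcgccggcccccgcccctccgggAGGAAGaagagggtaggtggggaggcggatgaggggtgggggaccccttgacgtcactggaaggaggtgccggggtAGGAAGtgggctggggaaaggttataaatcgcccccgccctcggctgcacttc
Kdr: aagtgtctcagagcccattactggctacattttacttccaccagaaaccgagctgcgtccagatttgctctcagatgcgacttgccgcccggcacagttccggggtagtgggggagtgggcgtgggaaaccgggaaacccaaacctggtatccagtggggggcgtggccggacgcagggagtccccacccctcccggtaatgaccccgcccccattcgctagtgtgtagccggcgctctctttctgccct
Flt1 held 2 matches, at −129 to −124 and −53 to −48 from the start, and Kdr held none in this window. These letters occurred in 29.5% of all 32841 RefSeq windows of the same length, so a match is common.

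Among the growth factors, Vegfa, Vegfb and Pgf were lower on the TMM scale, while Pdgfb and Angptl4 were higher. The VEGF ligand genes Vegfc and Vegfd were grouped with the lymphatic genes and are given below. Vegfa, encoding VEGF-A, which is made by many tissues including epithelium, stood at 67.8, 64.3 and 66.9 CPM in controls and at 33.2, 34.5 and 32.7 CPM in K5-RANKL libraries. This was 1.98-fold lower on the TMM scale (log2 fold change −0.99, SE 0.07, edgeR adjusted p = 2.42e-09) and did not differ beyond its error by library totals (0.01, SE 0.10, edgeR adjusted p = 0.921). Vegfb, a VEGFR1 ligand gene, stood at 35.6, 29.8 and 33.5 CPM and at 14.8, 16.4 and 14.9 CPM, lower by TMM (log2 fold change −1.10, SE 0.09, edgeR adjusted p = 1.20e-08), and its value by library totals was −0.10 (edgeR adjusted p = 0.357). The groups stood well apart for both genes in CPM.

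Pgf, encoding placental growth factor, another VEGFR1 ligand, stood at 5.53, 2.75 and 4.93 CPM and at 2.74, 3.0 and 1.72 CPM (log2 fold change −0.84, SE 0.26, edgeR adjusted p = 0.0101). The groups overlapped, the call was lost without control 1 or control 3 (edgeR adjusted p = 0.0625 and 0.0545), and the sign turned by library totals (0.16). Angpt1, the TIE2 agonist made by mural cells, did not pass (−0.30, SE 0.18), and 1 control at 10 CPM stood above the other 5 libraries.

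Pdgfb, the endothelial factor that recruits pericytes, stood at 10, 9.62 and 10.7 CPM in controls and at 34.3, 33.0 and 31.4 CPM in K5-RANKL libraries, 3.24-fold higher (log2 fold change 1.69, SE 0.09, edgeR adjusted p = 6.69e-11). Angptl4, encoding a secreted inhibitor of lipoprotein lipase that responds to fasting and low oxygen, stood at 9.13, 13.2 and 5.16 CPM and at 38.3, 34.2 and 48.3 CPM (log2 fold change 2.17, SE 0.33, edgeR adjusted p = 0.00257). Every K5-RANKL library was more than 2-fold above the highest control for both genes. In sum 2 of the 6 factors were higher, 3 lower and 1 did not pass, the median being −0.57. Over all genes tested 34.2% were higher and 32.1% lower.

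The source of these factors is not given by whole tissue. The summed level of 8 salivary acinar markers lay at 421503 to 554710 CPM in controls and 98690 to 146218 CPM in K5-RANKL libraries. All 8 were lower, and most of the sum was Spt1 (mean 437003 and 113933 CPM). The summed level of 6 epithelial markers lay at 972 to 1019 and 1650 to 2069 CPM. Of these, named after their values were seen, the basal keratin genes Krt5 and Krt14 rose most (log2 fold change 3.03 and 2.60). Krt18 and Cdh1 rose least (0.18 and 0.29). The part of acinar and epithelial cells in the values of Vegfa and Vegfb was not tested.

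Per length, the order of the genes changed between groups. Mean CPM per kilobase of exon, with lengths from GENCODE M21, was highest in controls for Vegfb (25.7), Plvap (19.7) and Vegfa (18.8). In K5-RANKL libraries it was highest for Plvap (22.8), Nrp1 (17.1) and Pecam1 (13.5), and Vegfb (12) and Vegfa (9.50) stood at ranks 5 and 7 of 35. Apln went from rank 32 (0.206) to rank 18 (2.83), and Prox1 and Sele were among the lowest in both groups.

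Of the 5 genes of lymphatic vessels, 4 were higher and 1 did not pass (median log2 fold change 1.22). Over all genes tested 34.2% were higher and 32.1% lower. Nrp2, encoding neuropilin-2, a co-receptor for VEGF-C that is also made by other cells, stood at 11.4, 15.2 and 12.6 CPM in controls and at 48.6, 50 and 55.5 CPM in K5-RANKL libraries, 3.94-fold higher (log2 fold change 1.98, SE 0.10, edgeR adjusted p = 2.78e-11). Lyve1, encoding a hyaluronan receptor of lymphatic endothelium and of some macrophages, stood at 4.89, 8.93 and 7.04 CPM and at 15.9, 15.6 and 17.9 CPM (log2 fold change 1.25, SE 0.15, edgeR adjusted p = 3.22e-06). Flt4, the VEGFR3 gene, stood at 4.42, 8.05 and 7.12 CPM and at 10.5, 11 and 11.7 CPM (log2 fold change 0.76, SE 0.16, edgeR adjusted p = 0.000591). In all of these the groups did not overlap, as was the case for 70.4% of all genes tested.

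Prox1, the transcription factor gene that specifies lymphatic endothelium, was near the limit of detection and passed the filter only with its K5-RANKL libraries. Its counts were 2, 7 and 13 in controls and 29, 34 and 34 in K5-RANKL libraries, or 0.184, 0.687 and 1.02 CPM and 1.2, 1.82 and 1.58 CPM (log2 fold change 1.22, SE 0.39, edgeR adjusted p = 0.0111). Without control 1 its value was 0.80 and the call was lost (edgeR adjusted p = 0.0665). Vegfc, the ligand gene of VEGFR3, did not pass (0.01, SE 0.21), at 2.58, 3.14 and 3.05 CPM and 3.57, 2.46 and 2.75 CPM. Within libraries the log2 ratio of Vegfc to Vegfa was higher by 0.97 in K5-RANKL glands, with no overlap between groups.

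Control 1 was low for the lymphatic genes, though not for these alone. Relative to the mean of the other controls, control 1 was below for all 5 lymphatic genes, by a median of 0.65 on the log2 scale (0.5 CPM added). It was also below for 7 of 8 macrophage markers, all 7 fibroblast markers and 6 of 7 leukocyte markers. The same held for all 3 mural genes and 8 of 10 identity genes. For 7 of 8 acinar markers and all 6 epithelial markers control 1 was above. Against Cdh5 in the same library, Flt4 differed by 0.36 and Prox1 by 1.01, and both overlapped between groups, through control 2 for Flt4 and control 3 for Prox1 (exact permutation p = 0.3 and 0.2, two-sided). The ratio of Lyve1 to Prox1 overlapped as well (difference −0.17, exact permutation p = 0.9). The summed level of 8 macrophage markers, some of whose cells also express Lyve1 and neuropilins, lay at 166 to 197 CPM in controls and 917 to 942 CPM in K5-RANKL libraries, with all 8 higher, and their part in the lymphatic values was not tested.

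Activation and sprouting genes were scarce in controls. Of these 5 genes 4 could be tested, and 3 were higher and 1 lower, with a median of 2.06. Over all genes tested 34.2% were higher and 32.1% lower. Selp and Apln had at most 9 counts in any control and passed the filter only through their K5-RANKL libraries. Such genes can hardly be called lower, so nothing is read from this count or median. Selp, encoding P-selectin, which endothelium and platelets store and expose on activation, stood at 0.553, 0.884 and 0.391 CPM in controls and at 5.11, 2.25 and 3.96 CPM in K5-RANKL libraries (log2 fold change 2.67, SE 0.39, edgeR adjusted p = 2.98e-05). Sele, encoding E-selectin, which is restricted to activated endothelium, had 2, 1 and 0 counts in controls and 15, 8 and 11 counts in K5-RANKL libraries, too few for the filter. From counts summed over each group, its ratio of K5-RANKL to control was 5.97, with a 95% counting interval from 1.88 to 30.4 (exact Clopper-Pearson). That interval leaves out the spread between libraries. Without the filter Sele was called (log2 fold change 2.49, SE 0.75, edgeR adjusted p = 0.00315). Within libraries the log2 ratio to Cdh5 was higher by 2.10 for Selp and by 1.86 for Sele, with no overlap for either.

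Platelets also hold P-selectin, so their markers were read beside it. The summed level of 7 platelet and megakaryocyte markers lay at 6.54 to 7.67 CPM in controls and 9.67 to 10.2 CPM in K5-RANKL libraries, and Gp9, Gp1bb and Ppbp had at most 0.332 CPM in any library. Of the 7, Pf4 was higher (log2 fold change 1.21), Itga2b did not pass (0.16), and the others had too few counts for the filter. Among these Gp5, named after its values were seen, had 9, 10 and 11 counts in controls and 5, 0 and 2 in K5-RANKL libraries. Without the filter it was called (log2 fold change −2.93, edgeR adjusted p = 1.34e-05). Gp1bb went the other way, with 0 counts in every control and 4, 2 and 5 in K5-RANKL libraries. It too was called without the filter (log2 fold change 4.55, edgeR adjusted p = 0.0234). In that setting Ppbp (1.67), Gp9 (−0.27) and Gp1ba (−0.61) did not pass. The part of platelets in the value of Selp was not tested. The globin rows Hbb-bs, Hbb-bt, Hba-a1 and Hba-a2 are listed at 0 in every library, so blood content cannot be read from them.

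Apln, encoding the peptide apelin, which sprouting tip cells of endothelium make, had the highest log2 fold change of the 34 genes of the main list tested. It stood at 0.83, 0.491 and 0.626 CPM in controls and at 12, 4.07 and 10.6 CPM in K5-RANKL libraries (log2 fold change 3.78, SE 0.68, edgeR adjusted p = 0.00418), and with limma voom it did not pass (3.62, adjusted p = 0.057). K5-RANKL 2 was the lowest K5-RANKL library for all 5 activation and sprouting genes, and also for Tnfsf11 (405 CPM) and for the basal keratin gene Krt5 (161 CPM against 398 and 368 CPM). Apelin is also made by cells other than endothelium, and the part of the epithelium in its value was not tested. The log2 ratio of ligand to receptor, Apln to Aplnr, was −2.91 ± 0.62 in controls and −0.29 ± 0.72 with RANKL on (SD, n = 3 each).

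Angpt2, encoding angiopoietin-2, which activated endothelium releases and which opposes angiopoietin-1 at TIE2, stood at 1.11, 1.18 and 1.10 CPM in controls and at 3.32, 2.94 and 3.03 CPM in K5-RANKL libraries (log2 fold change 1.46, SE 0.24, edgeR adjusted p = 3.54e-05). Its log2 ratio to Angpt1 went from −2.60 ± 0.38 to −0.92 ± 0.07 (SD, n = 3 each), a difference of 1.68 without overlap. Esm1, encoding endocan, a proteoglycan of tip cells that VEGF induces, went the other way, from 1.29, 1.57 and 1.33 CPM to 0.913, 0.535 and 0.699 CPM (log2 fold change −0.93, SE 0.31, edgeR adjusted p = 0.0145), and its value by library totals was 0.07. The call of Esm1 was lost without control 2 and with DESeq2 (adjusted p = 0.0555 and 0.0608). Apln and Angpt2 thus rose on the TMM scale while Esm1 fell on that scale.

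The sequences before the starts of Sele, Selp and Apln are shown because these activation genes had the lowest control levels and were higher together in K5-RANKL glands. They are 250 bases before the RefSeq start in GRCm38.p6, at chr1:164047984-164048233 (plus strand) for Sele, chr1:164115014-164115263 (plus strand) for Selp and chrX:48034854-48035103 (minus strand) for Apln, written 5′ to 3′, with capitals on AGGAAG or its reverse complement.
Sele: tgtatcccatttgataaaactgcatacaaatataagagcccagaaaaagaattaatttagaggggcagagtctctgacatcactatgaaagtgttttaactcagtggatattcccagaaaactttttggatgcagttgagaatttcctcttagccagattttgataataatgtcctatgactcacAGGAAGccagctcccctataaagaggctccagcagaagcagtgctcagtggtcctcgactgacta
Selp: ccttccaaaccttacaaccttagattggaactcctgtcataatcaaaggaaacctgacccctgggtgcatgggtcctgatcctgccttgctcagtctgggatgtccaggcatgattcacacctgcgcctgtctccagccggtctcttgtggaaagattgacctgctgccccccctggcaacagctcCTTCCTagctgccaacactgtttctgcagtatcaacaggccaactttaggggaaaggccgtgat
Apln: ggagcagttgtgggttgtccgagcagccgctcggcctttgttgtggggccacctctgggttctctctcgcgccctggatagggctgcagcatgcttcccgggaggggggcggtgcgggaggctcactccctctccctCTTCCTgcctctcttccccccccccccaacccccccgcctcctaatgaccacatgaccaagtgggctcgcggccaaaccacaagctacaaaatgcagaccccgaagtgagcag
Each held 1 match, at −65 to −60 in Sele, at −64 to −59 in Selp on the opposite strand, and at −113 to −108 in Apln on the opposite strand. RefSeq windows were found for 22 of the 35 vessel genes (29 windows), of which 11 windows, 37.9%, held AGGAAG on either strand, against 29.5% of all windows. A single NF-kB-type pattern was searched, whose reverse complement shares GGAA with the ETS-type letters. It was in none of the 29 windows and in 1.41% of all windows. A pattern this rare would mostly be missing from 29 windows, and other forms of NF-kB sites were not searched. Whether these windows, those of Sele and Selp included, hold NF-kB sites was therefore not tested. The hypoxia-type letters ACGTG were in 1 of the 29 windows, at one of the starts of Vegfa, and in 16.6% of all windows.

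All 3 mural genes were higher in K5-RANKL glands with no overlap, where 34.2% of all genes tested were higher and 70.4% did not overlap. Pdgfrb, the receptor gene for platelet-derived growth factor B on pericytes and fibroblasts, stood at 17.1, 16.2 and 18.9 CPM in controls and at 47.2, 44.8 and 46.8 CPM in K5-RANKL libraries (log2 fold change 1.40, SE 0.09, edgeR adjusted p = 2.30e-10). Rgs5, a regulator of G protein signalling that marks pericytes, stood at 14.5, 17.6 and 19.3 CPM and at 50.6, 37.3 and 30.7 CPM (log2 fold change 1.21, SE 0.22, edgeR adjusted p = 0.00241). Cspg4, encoding the NG2 proteoglycan of pericytes, stood at 7.56, 7.85 and 10.3 CPM and at 19.0, 15.2 and 18.1 CPM (log2 fold change 1.02, SE 0.13, edgeR adjusted p = 2.60e-06).

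Against Pdgfrb in the same library, the log2 ratio differed by 0.28 for its ligand gene Pdgfb and by −0.38 for Cspg4 without overlap, and by −0.23 for Rgs5 with overlap. The summed level of 7 fibroblast markers, cells that also express Pdgfrb, lay at 574 to 776 CPM in controls and 2672 to 3129 CPM in K5-RANKL libraries; 6 of the 7 were higher, Dcn did not pass, and their part in the mural values was not tested.

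**Figure D3:**
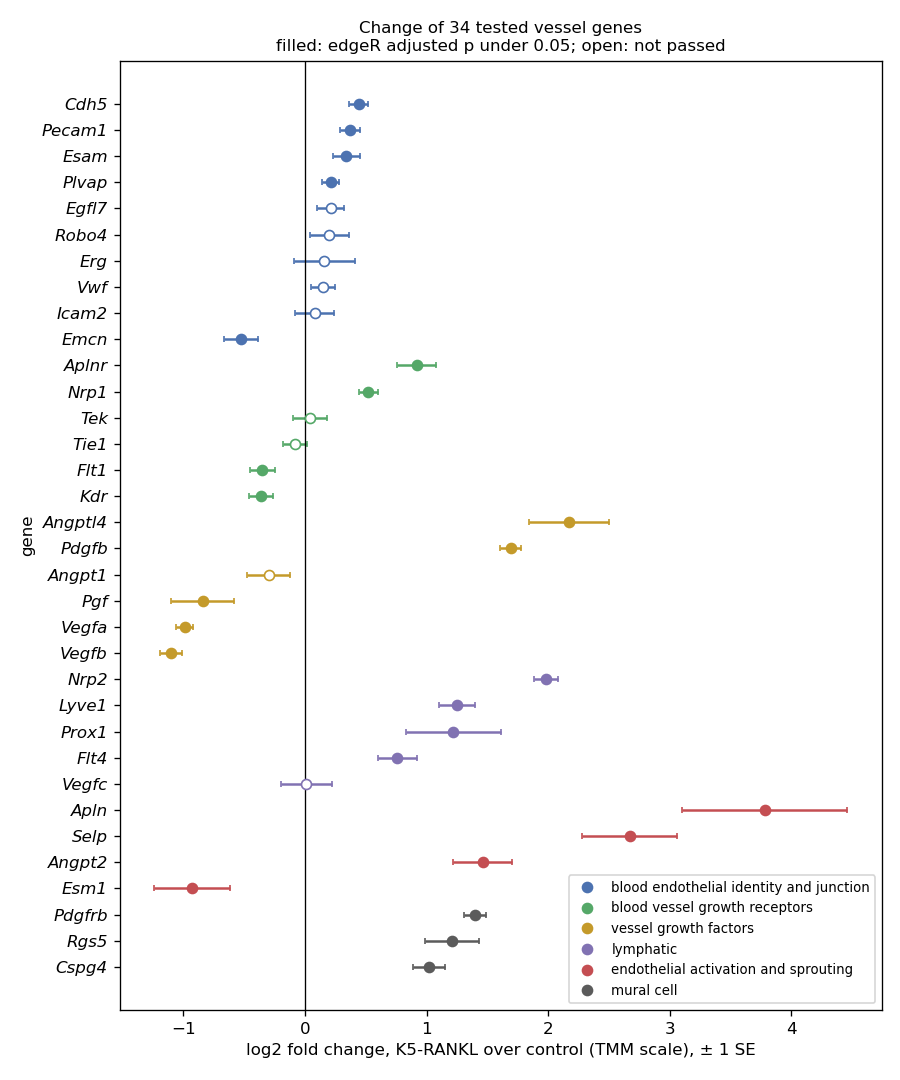
Log2 fold change of K5-RANKL over control on the TMM scale (x axis, bars ± 1 SE) for 34 tested vessel genes (y axis), coloured by role; filled points passed edgeR at adjusted p under 0.05 and open points did not. Identity genes lie between −0.53 and 0.44, and mural genes between 1.02 and 1.40.

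A further 74 vessel genes were read by the same roles. Their counts stand beside 34.2% higher and 32.1% lower over all genes tested. Of 28 further blood endothelial genes 11 were higher, 4 lower and 13 did not pass (median 0.24). The sphingosine phosphate receptor gene S1pr1 and the sialomucin gene Cd34 were higher (log2 fold change 0.78 and 0.72), and the transcriptional cofactor gene Lmo2 and the adhesion receptor gene Adgrf5 were lower (−0.83 and −0.63) on the TMM scale, with the opposite sign by library totals (0.17 and 0.36). Of 12 further lymphatic genes 10 were tested, with 7 higher, 1 lower and 2 not passing and a median of 1.03. Stab1, encoding a scavenger receptor of lymphatic and sinusoidal endothelium and of macrophages, was higher by 2.61, and Nfatc1, a transcription factor that acts in lymphatic valves and downstream of RANK, by 1.19. The VEGF ligand gene Vegfd, named after its value was seen, was higher by 0.86 (edgeR adjusted p = 0.0119). Its call was lost with DESeq2 and without K5-RANKL 3. Ccbe1, encoding a protein needed for processing of VEGF-C, was lower (−0.62, and 0.37 by library totals), and Mmrn1, a gene of lymphatic endothelium and platelets, did not pass (0.40), though it did without control 2 (0.64, edgeR adjusted p = 0.0364). Without control 1 the number lower was 2.

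Of 12 further activation genes 11 were tested, with 9 higher, none lower and 2 not passing and a median of 1.84. For this list and the mural list below, the shares over all genes tested were 34.2% higher and 32.1% lower. Both lists were chosen with earlier results of these data known, so nothing is read from their counts. The leukocyte adhesion gene Icam1 stood at 12.7, 16.1 and 16.3 CPM in controls and at 188, 155 and 174 CPM in K5-RANKL libraries (log2 fold change 3.51, SE 0.11, edgeR adjusted p = 5.80e-14), and Vcam1 was higher by 2.97. Both are also made by epithelium, fibroblasts or leukocytes under NF-kB signalling. Of 12 further mural genes 11 were tested, with 3 higher, 3 lower and 5 not passing and a median of 0.06, and without control 3 the number higher was 6. Des and Tagln were higher (1.08 and 0.63), and Notch3 did not pass (0.15), though it did without control 3 (0.33, edgeR adjusted p = 0.0219). Kcnj8, a potassium channel gene of pericytes, was lower on the TMM scale (−0.95) and near 0 by library totals (0.05). Cnn1, a contractile gene shared with myoepithelial cells, was lower (−1.21, and −0.22 by library totals), as was Acta2, named after its value was seen, on the TMM scale (−0.39) but not by library totals (0.60). The pericyte genes Pdgfrb, Rgs5 and Cspg4 therefore went up while Kcnj8 went down on that scale.

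The last list mixed inhibitors of vessel growth with soluble factors that guide or promote it, such as Angptl2 and Cxcl12. Of its 10 genes 8 were higher, none lower and 2 did not pass (median 0.89). Thbs1, encoding thrombospondin-1, an inhibitor of endothelial growth made by many cells, stood at 18.7, 19.6 and 20 CPM in controls and at 300, 310 and 333 CPM in K5-RANKL libraries (log2 fold change 4.01, SE 0.09, edgeR adjusted p = 3.89e-16). Thbs2, a related gene, was higher by 3.06, and Timp3 did not pass (0.11), though it did without K5-RANKL 1 (0.20, edgeR adjusted p = 0.034). In total 38 of the 70 other vessel genes tested were higher and 8 lower, 65.7% called against 66.2% of all genes. By direction 54.3% were higher and 11.4% lower, against 34.2% and 32.1% of all genes.

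**Figure D4:**
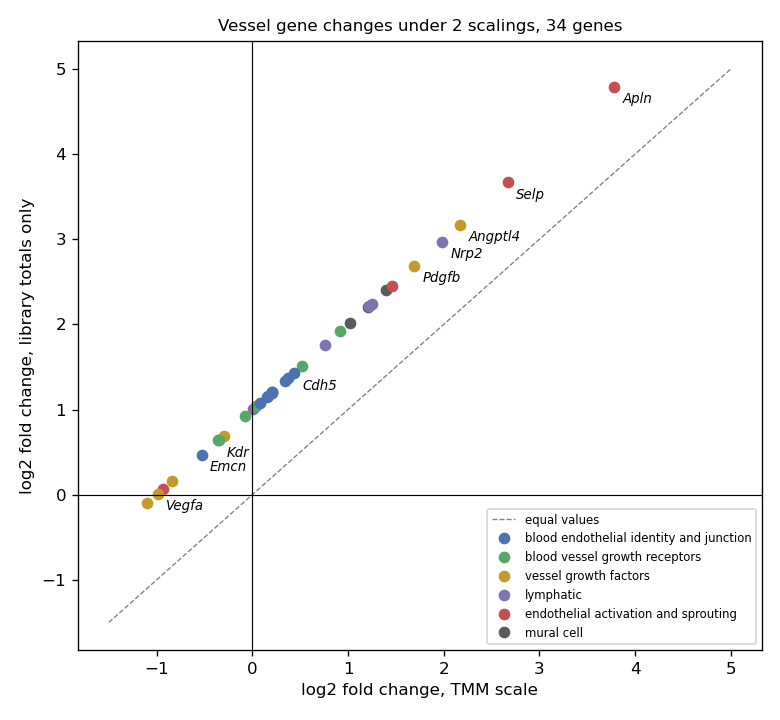
Log2 fold change of 34 vessel genes by library totals only (y axis) against the TMM scale (x axis), coloured by role; the dashed line marks equal values. All genes lie about 1 unit above the line, so Vegfa moves from −0.99 to 0.01 and Kdr from −0.36 to 0.64.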

How the data were processed

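RNA of salivary gland was sequenced in 6 libraries from poly(A)-based stranded kits, per the labels' protocols. The authors deposited raw read counts per gene; reads were aligned with STAR to mm10 (per the submitters' processing notes), with the counting tool, annotation and strand setting not given in the sources used here, so overlapping and antisense genes are uncertain. Groups follow the genotype label; replicate numbers follow deposition order and pair nothing. Nothing says whether pools of a group were raised apart.

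Counts were filtered with filterByExpr (minimum count 10), scaled by TMM and entered into edgeR (glmQLFit with robust estimation, glmQLFTest) over all 14044 genes kept, with Benjamini-Hochberg adjustment over them. Each SE is the log2 fold change over the root of its F value. Pair ratios used counts plus 0.5 and an exact permutation test. The members and lists were chosen with earlier results of these data known. Of each further list, the 2 called genes with the smallest p in each direction were named, plus examples that did not pass. Sequences and promoter windows are RefSeq's, and exon lengths GENCODE M21's, both GRCm38. R was version 4.3.3, with DESeq2 1.42.0 and voom of limma 3.58.1 as alternatives to edgeR 4.0.16; library totals, other scalings, filters and leaving out each library were also tried. Adgrl4, Adgrf5, Vegfd and Adgre1 were matched through RefSeq synonyms. The test was also run on simulated counts in which few genes changed. In the data 66.2% of genes tested were called, so that run does not bear on the scaling used here. One leukocyte and one platelet marker are not reported here and were left out of the summed marker levels.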

Additional observations from a re-analysis of the deposited data

How the results depend on the processing

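The numbers of vessel genes called depended on scaling by library totals and less on other choices. Single calls were less stable. Esam, Plvap, Kdr, Pgf, Prox1, Esm1 and Apln each lost theirs with DESeq2, with voom or without some library. By library totals 30 vessel genes were higher and 0 lower, with 10 identity genes and 6 receptors higher, 0 lower in either group, and 0 lower among growth factors or activation genes; 67 other vessel genes were higher and 0 lower, and over all genes 11733 were higher and 698 lower. In that setting the log2 fold change was 0.47 for Emcn, 0.64 for Kdr, 0.64 for Flt1, 0.92 for Tie1, 0.01 for Vegfa, 0.16 for Pgf, 0.69 for Angpt1, 0.07 for Esm1, 0.36 for Adgrf5, 0.17 for Lmo2, 0.37 for Ccbe1, 0.05 for Kcnj8 and 0.60 for Acta2. The shift follows from the scaling itself, since the median of all genes moved with it.

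With DESeq2 2 identity genes were higher and 0 activation genes lower; with at least 50 counts in 3 libraries 0 activation genes were lower, because Esm1 was not tested. Under the alternatives other than library totals, 16 to 19 vessel genes were higher and 5 to 7 lower. Leaving out 1 library gave 17 to 19 higher and 5 to 7 lower, 3 to 4 identity genes higher, 1 to 2 receptors lower (1 without control 3), 0 to 1 activation genes lower (0 without control 2), 33 to 41 other vessel genes higher, 4444 to 4764 of all genes higher and 4144 to 4466 lower. Genes near 0 turned sign without passing: Erg (−0.19 without K5-RANKL 3, and up to 0.30 without K5-RANKL 1), Icam2 (−0.01 without K5-RANKL 1), Tek (−0.09 without control 2, −0.01 without K5-RANKL 2, 0.12 without control 3) and Vegfc (0.00 with upper-quartile scaling and voom, −0.07 without control 1, −0.17 without K5-RANKL 1, 0.11 without K5-RANKL 2). No paired analysis was possible because the labels give no replicate numbers. Depth limits Sele, Prox1, Selp, Apln, Angpt2 and Esm1, the 6 vessel genes with under 20 counts in every control.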

Other observations

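In the further activation list 9 of 11 genes tested were higher, against 34.2% of all genes tested. It held 6 genes known from high endothelial venules, the vessels through which lymphocytes enter lymphoid tissue. They were picked out after their values were seen, so their values are a description and say nothing of the group. Chst4 and Chst2, sulfotransferases that modify selectin ligands, stood at 0.645, 0.589 and 0.861 CPM and at 4.52, 5.60 and 5.01 CPM in controls. In K5-RANKL libraries Chst4 stood at 3.40, 3.21 and 3.31 CPM and Chst2 at 22.0, 16.6 and 20.8 CPM (log2 fold change 2.21 and 1.98, edgeR adjusted p = 1.01e-06 and 1.29e-09). Glycam1, a mucin-like ligand of L-selectin that secretory epithelia also make, stood at 65.7, 85.6 and 95.4 CPM and at 208, 219 and 194 CPM (log2 fold change 1.33, edgeR adjusted p = 3.38e-07). Fut7, a fucosyltransferase gene of venules and leukocytes, was higher by 1.84 (edgeR adjusted p = 1.22e-05). Chst4 and Fut7 passed the filter only with their K5-RANKL libraries.

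The adhesion gene Madcam1 and the chemokine receptor gene Ackr1 were higher by 0.73 and 0.62 (edgeR adjusted p = 0.0392 and 0.0214), but Madcam1 was lost without control 3, K5-RANKL 1 or K5-RANKL 2 (edgeR adjusted p = 0.217, 0.065 and 0.112), and Ackr1 without control 1, control 2 or K5-RANKL 1 (edgeR adjusted p = 0.0978, 0.0789 and 0.0591). With DESeq2 both were lost (adjusted p = 0.121 and 0.0613). Madcam1 passed the filter only with its K5-RANKL libraries. The summed level of 7 leukocyte markers lay at 326 to 362 CPM in controls and 670 to 735 CPM in K5-RANKL libraries, with 6 higher and Cd79a, named after its value was seen, not passing (0.16); their part in these values was not tested.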
